A study of Homo sapiens with 6 samples.

Results

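Claudins, occludin and classical cadherins are the membrane proteins that join epithelial cells to each other. The 10 genes described here, 7 claudins (CLDN1, CLDN2, CLDN3, CLDN4, CLDN7, CLDN12 and CLDN18), occludin (OCLN) and 2 classical cadherins (CDH1 and CDH3), were taken by symbol from the 37493 genes of the count tables, and each symbol had 1 entry. Their transcripts were counted in OE33 and Eso26, 2 cell lines from human esophageal adenocarcinoma, with 1 RNA sequencing library for each of 4 conditions. OE33 cells received an siRNA against PPARG (siPPARG) or a non-silencing siRNA (control), and so did Eso26 cells, in both lines with the reagent Lipofectamine RNAiMAX. OE33 was grown in DMEM and Eso26 in RPMI-1640 per the labels, both with serum, so line and medium cannot be told apart. The design text speaks of triplicates, but each condition is 1 column of counts, treated here as 1 library.

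Claudins are proteins with 4 membrane spans, written CLDN, that form the strands of the tight junction. Barrier claudins such as CLDN1, CLDN3, CLDN4 and CLDN7 restrict the passage of solutes between cells, whereas CLDN2 forms a channel for cations and water and is typical of leaky epithelia. CLDN18 is made from alternative first exons as a lung and a stomach form. Classical cadherins hold neighbouring cells together through calcium-dependent contacts outside the cell and are tied to actin inside it by β-catenin and α-catenin. PPARG is a ligand-activated nuclear receptor known for its targets in lipid storage.

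The members that carried the largest difference between the lines, CLDN2 and CLDN18, are shown by the DNA just before their annotated start sites, with CLDN3 beside them as a claudin read in both lines. The sequences are RefSeq's, on GRCh38.p14, 250 bases long and written 5′ to 3′ along the gene, and capitals mark CG dinucleotides. CLDN2 and CLDN18 each have 2 annotated starts, and the deposited counts do not say which was used.
CLDN2 start 1, chrX:106899914-106900163, plus strand: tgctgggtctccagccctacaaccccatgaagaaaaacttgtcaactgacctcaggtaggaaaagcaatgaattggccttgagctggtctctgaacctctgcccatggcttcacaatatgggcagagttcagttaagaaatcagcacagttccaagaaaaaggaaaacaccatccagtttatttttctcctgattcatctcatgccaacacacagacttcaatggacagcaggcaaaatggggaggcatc
CLDN2 start 2, chrX:106918110-106918359, plus strand: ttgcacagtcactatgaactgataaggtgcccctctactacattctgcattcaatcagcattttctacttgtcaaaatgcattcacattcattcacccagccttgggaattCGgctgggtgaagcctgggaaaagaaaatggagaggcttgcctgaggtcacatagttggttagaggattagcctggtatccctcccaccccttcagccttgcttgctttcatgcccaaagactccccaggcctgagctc
CLDN18 start 1, chr3:137998566-137998815, plus strand: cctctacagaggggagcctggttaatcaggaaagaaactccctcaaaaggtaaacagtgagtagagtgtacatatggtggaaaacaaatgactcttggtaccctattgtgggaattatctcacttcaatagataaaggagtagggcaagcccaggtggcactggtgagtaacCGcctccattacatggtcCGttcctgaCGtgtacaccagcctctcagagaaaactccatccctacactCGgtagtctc
CLDN18 start 2, chr3:138009915-138010164, plus strand: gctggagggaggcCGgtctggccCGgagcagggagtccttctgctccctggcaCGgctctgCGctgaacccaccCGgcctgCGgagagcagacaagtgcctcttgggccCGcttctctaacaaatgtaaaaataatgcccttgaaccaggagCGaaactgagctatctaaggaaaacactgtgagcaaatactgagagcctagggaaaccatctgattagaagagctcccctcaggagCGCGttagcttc
CLDN3 start 1, chr7:73770271-73770520, minus strand: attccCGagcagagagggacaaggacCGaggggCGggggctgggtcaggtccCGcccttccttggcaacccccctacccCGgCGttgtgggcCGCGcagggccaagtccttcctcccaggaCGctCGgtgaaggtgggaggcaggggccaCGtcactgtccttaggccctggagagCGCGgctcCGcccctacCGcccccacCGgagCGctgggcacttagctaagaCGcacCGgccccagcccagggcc

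These windows differed in CG content. The CLDN2 windows held 0 and 1 CG dinucleotides, and 14.7% of the 35116 annotated windows held 1 or fewer. The CLDN18 windows held 4 and 10, the CLDN3 window held 19, and the median over all windows was 11. Windows were found for 8 of the 10 genes, all but CDH1 and CDH3. The other windows held 28 CG dinucleotides for CLDN1, 24 and 20 for OCLN, 9 and 25 for CLDN7, 12 for CLDN12 and 4 for CLDN4. Whether CG content is tied to the line in which a gene was read was not tested. The half-site of nuclear receptors, AGGTCA on either strand, occurred 1 time in each CLDN2 window, in each CLDN7 window and in the CLDN4 window, and 12.1% of all windows hold it. It did not occur in the CLDN1, CLDN3, CLDN12, CLDN18 or OCLN windows. The PPAR direct repeat, 2 copies of AGGTCA with 1 base between them, was held by 0.0171% of all windows. It was in none of the 12 windows, and with so rare a motif its absence says little. Only exact matches inside the windows were counted, so PPAR sites of other sequence or position were not looked for. The CDX motif TTTATNG, which 8.93% hold, was in none of the 12 windows either. The E-box CACCTG, the core bound by SNAI and ZEB repressors, was in the first CLDN18 window, in both OCLN windows and in the second CLDN7 window, against 17.5% of all windows.

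Library totals ran from 16866996 to 23019840 counts. Levels are given in CPM, counts relative to library size after 1 TMM scaling over the 4 libraries, and with 1 library per condition the 95% intervals cover counting error only. PPARG, the targeted gene, had 17.8 CPM in OE33 siPPARG, against 130 CPM in the OE33 control, a ratio of 0.137 (interval 0.121 to 0.154). In Eso26 it had 9.41 CPM in the library labelled siPPARG, against 11.2 CPM in the control, and the interval of that ratio, 0.698 to 1.02, includes 1. Directions given for Eso26 therefore refer to the library labelled siPPARG, and in either line a response to the siRNA itself and a response to less PPARG cannot be told apart. All 6 epithelial markers looked at (EPCAM, KRT8, KRT18, KRT19, ESRP2 and ELF3) were above 5 CPM in every library. The summed level of 8 mesenchymal markers was 4.46 to 8.24 CPM, with vimentin at 0 to 10 counts. Most of that sum was COL1A1, at 4.995 and 3.62 CPM in OE33 siPPARG and control. In the Eso26 library labelled siPPARG and the Eso26 control, COL1A1 had 6.32 and 5.56 CPM.

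The first comparison set OE33 against Eso26. CLDN2 and CLDN18 were each found in 1 of the 2 lines and nearly or wholly missing from the other, in opposite directions. CLDN12, OCLN and CLDN4 were more than 2-fold higher in the OE33 control than in the Eso26 control, CLDN3 was more than 2-fold lower, and CLDN1, CLDN7, CDH1 and CDH3 differed by less than 1.5-fold. Past 2-fold, 4 members were higher in OE33 and 2 were lower. Of the 11211 genes that reached 5 CPM in a control, 21.5% were higher past 2-fold, 16.3% lower and 37.8% either way. CLDN18 among the higher members and CLDN2 among the lower reached 5 CPM only in the line where they were read, so they were bound to be counted. With 1.5-fold as the threshold the count of members stayed 6, against 59.3% of genes. Between the siPPARG libraries, 6 members were higher in OE33 and 2 lower past 1.5-fold, against 59.7% of genes either way. There CLDN1 stood at a ratio of 1.99 and CDH1 at 1.64.

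**Figure D1:**
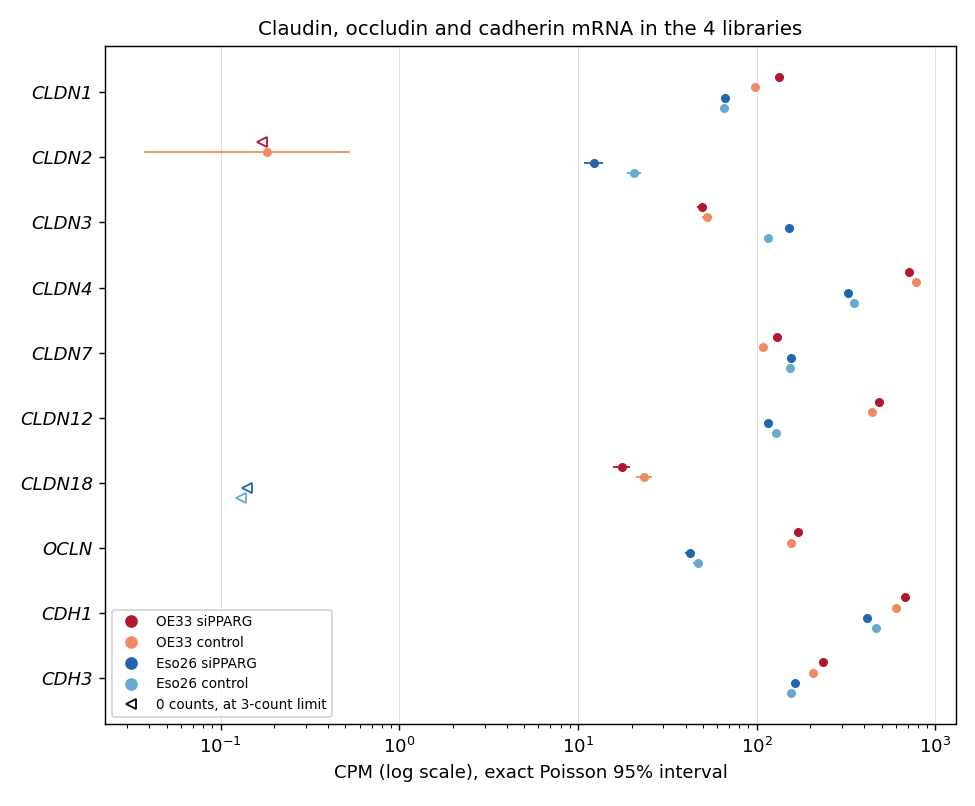
Level of each member in each library, in CPM on a log scale, with exact Poisson 95% intervals; open triangles mark 0 counts, drawn at the level that 3 counts would give. CLDN2 sits at or below 0.181 CPM in OE33 and CLDN18 at 0 counts in Eso26, while the 8 other members lie at 42.5 CPM or more in all 4 libraries.

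CLDN18 had 309 counts (17.5 CPM) in OE33 siPPARG and 390 counts (23.5 CPM) in the OE33 control, against 0 counts in both Eso26 libraries. With 3 counts as the limit that a count of 0 allows, the OE33 control was at least 182-fold higher than the Eso26 control, and OE33 siPPARG at least 125-fold higher than the Eso26 library labelled siPPARG. CLDN18 counts were thus confined to the OE33 libraries among these 4. The counts are per gene and do not separate the lung form from the stomach form.

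CLDN2, the channel-forming claudin, had 0 counts in OE33 siPPARG and 3 counts (0.181 CPM) in the OE33 control. In Eso26 it had 262 counts (12.3 CPM) in the library labelled siPPARG and 476 counts (20.5 CPM) in the control. The ratio of the OE33 control to the Eso26 control was 0.00882 (interval 0.00181 to 0.0259), and between the siPPARG libraries OE33 was at least 72.1-fold lower. In bulk RNA, fewer cells with a transcript and less of it per cell cannot be told apart, so these values do not say how many Eso26 cells carried CLDN2.

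The barrier claudins did not move together between the lines. CLDN4 had 712 CPM in OE33 siPPARG and 774 CPM in the OE33 control, against 326 CPM in the Eso26 library labelled siPPARG and 352 CPM in the Eso26 control. CLDN3 ran the other way, with 49.3 and 52.8 CPM in OE33 siPPARG and control against 152 and 115 CPM in the same Eso26 conditions. The control ratio of OE33 to Eso26 was 2.20 (interval 2.14 to 2.26) for CLDN4 and 0.459 (interval 0.425 to 0.495) for CLDN3. CLDN3 and CLDN4 lie on chromosome 7 with 0 protein-coding genes between them in RefSeq's table, and both encode receptors for the enterotoxin of Clostridium perfringens.

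CLDN1, the barrier claudin without which mouse skin loses water, had 133 CPM in OE33 siPPARG and 98.1 CPM in the OE33 control, against 66.6 CPM in the Eso26 library labelled siPPARG and 66.0 CPM in the Eso26 control. Its order was OE33 siPPARG, OE33 control and then the 2 Eso26 libraries, whose counting intervals overlap. CLDN7, which in the intestine also lies along the lateral membrane, had 129 and 109 CPM in OE33 siPPARG and control, against 155 and 154 CPM in the same Eso26 conditions. The intervals of the 2 Eso26 levels of CLDN7 overlap as well. The control ratio of OE33 to Eso26 was 1.49 (interval 1.39 to 1.59) for CLDN1 and 0.707 (interval 0.668 to 0.749) for CLDN7.

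CLDN12, a claudin that lacks the usual PDZ-binding tail, and OCLN, a tight junction protein of the MARVEL family, differed between the lines by nearly the same factor. CLDN12 had 483 CPM in OE33 siPPARG and 440 CPM in the OE33 control, against 116 CPM in the Eso26 library labelled siPPARG and 129 CPM in the Eso26 control. OCLN had 171 and 155 CPM in OE33 siPPARG and control, against 42.5 and 47.0 CPM in the same Eso26 conditions. The control ratios were 3.42 (interval 3.28 to 3.57) for CLDN12 and 3.29 (interval 3.07 to 3.54) for OCLN, and the intervals overlap. OCLN has a partial copy, OCLNP1, which held 3 counts in OE33 siPPARG and 0 in the other libraries, and the handling of reads shared with it was not given in the sources used here.

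CDH1, which encodes E-cadherin, and CDH3, which encodes P-cadherin, were read at 155 CPM or more in every library and differed between the lines by less than 1.5-fold in the controls. CDH1 had 680 CPM in OE33 siPPARG and 603 CPM in the OE33 control, against 415 CPM in the Eso26 library labelled siPPARG and 463 CPM in the Eso26 control. CDH3 had 235 and 206 CPM in OE33 siPPARG and control, against 163 and 155 CPM in the same Eso26 conditions. The control ratios were 1.30 (interval 1.27 to 1.34) for CDH1 and 1.33 (interval 1.26 to 1.39) for CDH3. The genes are neighbours on chromosome 16, with 0 protein-coding genes between them, and unlike the CLDN3 and CLDN4 pair they differed between the lines in the same direction.

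**Figure D2:**
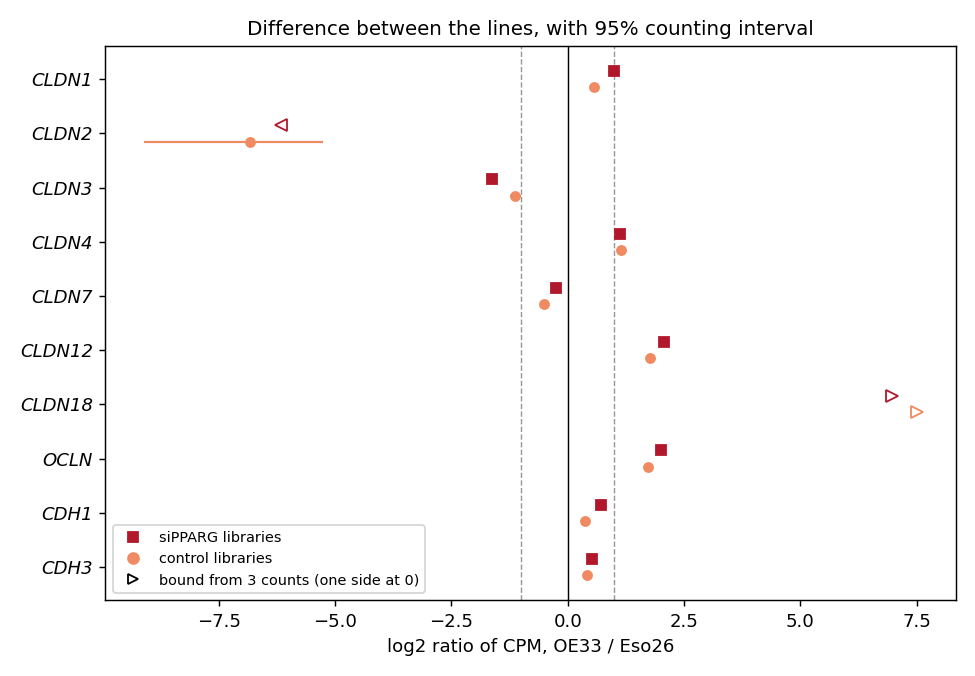
Log2 ratio of OE33 to Eso26 for each member, in the siPPARG libraries (squares) and in the control libraries (circles), with 95% counting intervals; open triangles are bounds at 3 counts where 1 side is at 0, and dashed lines mark 2-fold. CLDN2, CLDN3 and CLDN7 lie left of 0 in both pairs of libraries and the 7 other members lie right of it, with CLDN18 at least 182-fold higher in the OE33 control than in the Eso26 control.

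For all 10 members the OE33 libraries and the Eso26 libraries did not overlap, with 7 higher and 3 lower in OE33. Of the 11382 genes that reached 5 CPM in any library, 87.2% did not overlap either, 44.8% being higher and 42.5% lower in OE33, so the members' separation by line is what most genes showed. In a model of line and treatment on the 4 libraries, edgeR's quasi-likelihood test called the line term for all 10 members at an adjusted p under 0.05, where it called 72.3% of all genes. The model leaves 1 residual degree of freedom, and its p-values measure the spread between these libraries, which nothing says came from separate cultures. CLDN18 and CLDN2 passed the filter only through the line in which they were read. The other line held 0 counts of CLDN18 and at most 3 of CLDN2. Their separation by line and their calls were therefore bound to come out and add nothing to the counts. CLDN12, OCLN, CLDN4 and CLDN1 rose in OE33, with fitted log2 folds of 1.88, 1.82, 1.09 and 0.74 and edgeR adjusted p-values of 3.76e-05, 4.17e-05, 0.000197 and 0.00324. CLDN3 fell by 1.41 on the log2 scale, with an edgeR adjusted p of 0.000257. The smallest line differences, of CLDN7 (log2 fold -0.42, edgeR adjusted p 0.0209), CDH1 (0.51, 0.0114) and CDH3 (0.43, 0.0165), were no longer called in some fits of 3 libraries. With line alone as the term and the Eso26 library labelled siPPARG left out, the edgeR adjusted p was 0.0778 for CLDN7, 0.0588 for CDH1 and 0.0533 for CDH3. Such a fit has 1 library in 1 line, which is assumed to vary like the siPPARG and control pair of the other line.

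The genes nearest to a member were found over the 3 log2 folds (siPPARG over control in each line, and OE33 control over Eso26 control) by Euclidean distance among 11381 other genes. For CLDN12 the nearest was BCL2L13, at a distance of 0.048, followed by B4GALT1, at 0.052, and by OCLN, at 0.057. For CLDN18 the nearest was MDFIC, at 0.055, and for CLDN2 it was ZNF93, at 0.75. The places of CLDN18 and CLDN2 among the genes are set in part by counts at or near 0 and by the prior count: the Eso26 fold of CLDN18 is 0 because both libraries had 0 counts, and its control log2 fold of 7.88 was 9.87 with a prior count of 0.5. Their nearest genes therefore say little. The 3 folds rest on the same 4 libraries, and the distances are a description only.

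The second comparison asked how the junction genes stood after siPPARG in each line. In neither line did a member pass 2-fold. In OE33, 6 of the 9 members kept by the filter of 5 CPM were higher than in the control by their counting intervals and 2 were lower, with CLDN1 and CLDN7 as the largest higher ratios and CLDN18 as the largest lower one. In Eso26, 2 of 9 kept members were higher and 5 lower, and the largest differences were those of CLDN2, lower, and CLDN3, higher. Over all genes kept, intervals lay above 1 for 26% and below it for 24.5% in OE33, and for 23.6% and 29.6% in Eso26. Counting intervals narrow as counts rise, and these shares were not matched to the levels of the members. CLDN2 was under the filter in OE33 and CLDN18 in Eso26.

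**Figure D3:**
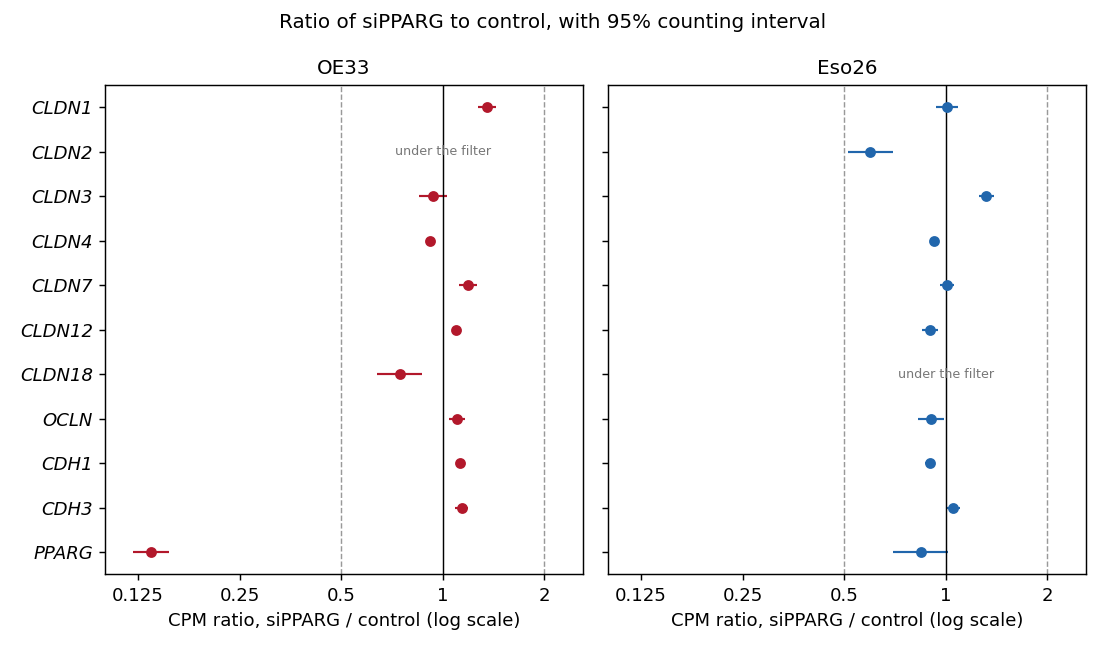
Ratio of CPM in siPPARG to control for each member and for PPARG, in OE33 (left) and Eso26 (right), on a log scale with 95% counting intervals; the dashed lines mark 2-fold in either direction. PPARG stands at 0.137 in OE33 and at 0.843 in Eso26, and every member kept by the filter lies between 0.598 and 1.35.

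In OE33, 1.49% of the 10550 genes kept were past 2-fold and 5.69% past 1.5-fold, with 0 members among them. Counting intervals excluded 1 for 50.5% of those genes, above it for 26% and below it for 24.5%, so an interval clear of 1 was common at this depth. CLDN1 had 2338 counts in siPPARG and 1627 in control, a ratio of 1.35 (interval 1.27 to 1.44). CLDN7 had 2280 counts in siPPARG and 1807 in control, a ratio of 1.19 (interval 1.12 to 1.26). CLDN18 had a ratio of 0.746 (interval 0.640 to 0.868). The cadherins stood at 1.14 (interval 1.09 to 1.19) for CDH3 and 1.13 (interval 1.10 to 1.16) for CDH1, and OCLN and CLDN12 both at 1.10. CLDN4 stood at 0.919 (interval 0.897 to 0.942). The interval of CLDN3, 0.850 to 1.03, includes 1. The median log2 fold of the 9 kept members was 0.14, beside 0.0024 over all genes kept.

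In Eso26, 0.202% of the 10421 genes kept were past 2-fold and 2.39% past 1.5-fold, and 53.3% had counting intervals that excluded 1, above it for 23.6% and below it for 29.6%. CLDN2 was the 1 member past 1.5-fold, with a ratio of 0.598 (interval 0.512 to 0.697), where 1.14% of genes were lower past 1.5-fold. CLDN3 had 3243 counts in the library labelled siPPARG and 2668 in the control, a ratio of 1.32 (interval 1.26 to 1.39). CDH1 stood at 0.896 (interval 0.871 to 0.922), CLDN12 at 0.898 (interval 0.851 to 0.948), OCLN at 0.904 (interval 0.827 to 0.989) and CLDN4 at 0.926 (interval 0.897 to 0.957). CDH3 stood at 1.05, with an interval just above 1, and the intervals of CLDN1 and CLDN7 include 1. The median log2 fold of the 9 kept members was -0.11, beside -0.0073 over all genes kept.

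**Figure D4:**
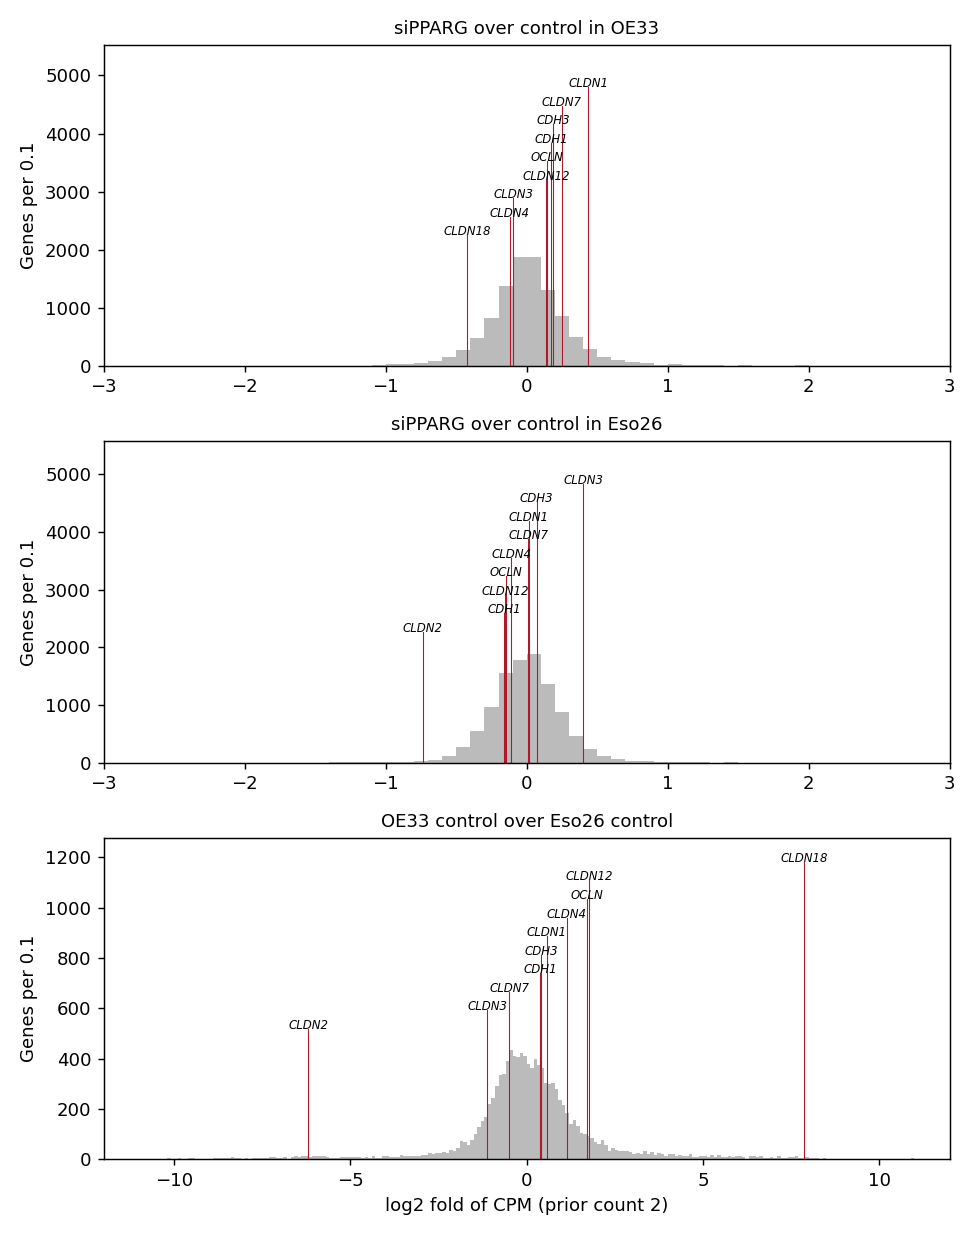
Log2 fold of CPM (prior count 2) over all genes kept in each comparison (grey bars, genes per bin of 0.1), with the members as labelled lines; line height only separates the labels, and in the upper panels genes beyond 3 are not shown. In both siPPARG comparisons the members lie within 1 of 0, and in the comparison of the controls CLDN2 and CLDN18 stand far to either side.

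CLDN4 was the 1 member with counting intervals below 1 in both lines, at 0.919 in OE33 and 0.926 in Eso26, and CDH3 the 1 member with intervals above 1 in both. For CDH3 in Eso26 the interval includes 1 under DESeq2's size factors. The share of all genes with intervals on the same side of 1 in both lines was not computed, so no background stands beside these calls. In the lines taken singly, intervals lay below 1 for 24.5% of genes in OE33 and 29.6% in Eso26, and above it for 26% and 23.6%. CDH1, CLDN12 and OCLN, 3 of the 8 members kept in both lines, had intervals above 1 in OE33 and below 1 in Eso26. Of the 9589 genes kept in both lines, 14.2% had intervals on opposite sides of 1, a share not matched to the members' levels. In the model of the 4 libraries, edgeR's quasi-likelihood test called the treatment term for 0 of the 10 members and for 0 of all 11382 genes (0%) with adjusted p held under 0.05. The smallest unadjusted p among the members was 0.0446, for CLDN2, with an edgeR adjusted p of 0.941, and 574 genes had an unadjusted p under 0.05. DESeq2 called 13 genes with none of the members among them, and limma called 0. The model takes its residual from how far the treatment effects of the lines differ, and PPARG was not detectably lower in Eso26. A count of 0 is therefore no evidence that the members kept their levels.

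Partners of these proteins were read from lists made for this purpose. The largest line difference among the catenins and nectins of the adherens junction was that of CTNNA1, which encodes αE-catenin, the link from the cadherin complex to actin. CTNNA1 had 430 CPM in OE33 siPPARG and 532 CPM in the OE33 control, against 10.3 CPM in the Eso26 library labelled siPPARG and 10.9 CPM in the Eso26 control. The control ratio was 49.0 (interval 43.3 to 55.8). The α-catenin genes CTNNA2 and CTNNA3 had at most 6 counts in any library. CTNNB1, which encodes β-catenin, was lower in OE33, with 196 and 180 CPM in OE33 siPPARG and control against 420 and 448 CPM in the same Eso26 conditions. A pseudogene, CTNNA1P1, had 3 and 8 counts in OE33 siPPARG and control, against 29 and 25 in the same Eso26 conditions, and the handling of shared reads is likewise unknown.

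**Figure D5:**
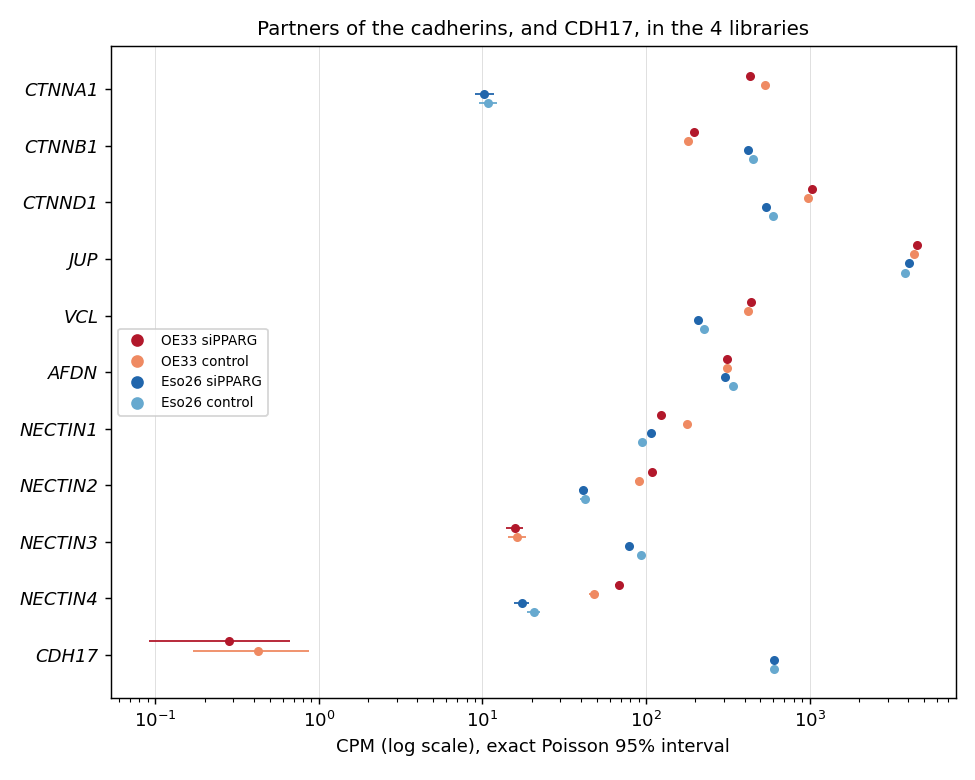
Level of each cadherin partner and of CDH17 in each library, in CPM on a log scale, with exact Poisson 95% intervals. CTNNA1 lies near 10 CPM in both Eso26 libraries and at 430 CPM or more in both OE33 libraries, and CDH17 is placed the other way round.

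Of the 10 catenin and nectin genes, edgeR called 6 higher and 2 lower in OE33 for the line term, where 36.3% of all genes were called higher and 35.9% lower. Besides CTNNA1 and CTNNB1, these included NECTIN3, lower (control ratio 0.175, interval 0.153 to 0.198), and NECTIN4, higher (2.35, interval 2.09 to 2.64), which encode adhesion molecules of the nectin family. Of 15 tight junction scaffold and partner genes, 10 were called higher and 2 lower in OE33. The polarity gene CRB3 stood at a control ratio of 2.62, the cingulin gene CGN at 2.43, the scaffold gene TJP3 at 2.21 and MARVELD2, which encodes tricellulin, at 1.98. Of 8 desmosome genes, 4 were called higher and 2 lower, and DSC3 among them passed the filter only through OE33. The desmocollin genes went opposite ways, with DSC3 at 29.6 and 38.0 CPM in OE33 siPPARG and control against 0 and 1 counts in the same Eso26 conditions, and DSC2 at 67.8 and 55.6 CPM against 142 and 198 CPM. The plaque gene PPL stood at a control ratio of 2.92 and PKP2 at 0.418. With siPPARG, 0 genes of these lists that the filter of 5 CPM kept were past 2-fold in either line, beside 1.49% of all genes kept in OE33 and 0.202% in Eso26. Under the filter, PKP1 had 37 counts in the Eso26 library labelled siPPARG and 18 in the control. In Eso26, TJP3 was past 1.5-fold, at a ratio of 1.51 (interval 1.35 to 1.69).

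Among 10 other cadherins, CDH17, which encodes the liver-intestine cadherin, stood out. It had 5 and 7 counts in OE33 siPPARG and control, against 12869 and 14093 counts in the same Eso26 conditions, where it reached 603 and 607 CPM. The OE33 control was 1439-fold lower than the Eso26 control (interval 698 to 3579). CDH17 passed the filter only through Eso26 and was named for this fold, so no test of it is given. CDH2, which encodes N-cadherin, had 0 counts in all 4 libraries. CDH24 had 18.7 and 16.5 CPM in OE33 siPPARG and control, against 9.60 and 8.45 CPM in the same Eso26 conditions. Of 13 other claudins, CLDN9 and CLDN15 alone reached 5 CPM in a control library, with control ratios of 4.49 and 2.58. They had 7.36 and 7.78 CPM in the OE33 control, against 1.64 and 3.02 CPM in the Eso26 control. Both thus passed the filter only through OE33, so their ratios were bound to lie above 1.

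Transcripts of the factors that repress CDH1 in epithelial-to-mesenchymal transition were low in both lines. SNAI2 had 90 counts (5.11 CPM) in OE33 siPPARG and 112 counts (6.75 CPM) in the OE33 control, against 0 counts in both Eso26 libraries, so that the OE33 control was at least 52.2-fold higher. SNAI1 had 2.61 and 3.32 CPM in OE33 siPPARG and control, against 7.12 and 5.69 CPM in the same Eso26 conditions. ZEB1 had 10 to 24 counts in every library and ZEB2 at most 1, and TWIST1 and TWIST2 had 0 counts throughout.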

How the data were processed

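Per the submitters' processing notes, Trim Galore, STAR, Bowtie, Picard and MACS2 were used with build hg19, with no tool tied to a file. No source used here names the read counter, its strand setting or its annotation. The deposited values are raw read counts per gene, whole numbers without normalisation as the files show. Of 37533 entries per table, 40 that repeat an identifier were summed with their partner, leaving 37493, of which 37402 matched the identifier table; the symbols are the count tables' own. The 2 deposited peak lists were not used, since no hg19 annotation was at hand to place peaks at genes.

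Counts were scaled by TMM over the 4 libraries (edgeR 4.0.16, R 4.3.3). Log2 folds used a prior count of 2, a gene was kept if either library compared reached 5 CPM, and 2-fold was the threshold. The limit set on a count of 0 was 3 counts, or 0.129 to 0.181 CPM. Ratios carry exact conditional binomial (Clopper-Pearson) 95% intervals and levels exact Poisson ones, for counting error only. The model of line and treatment used edgeR's quasi-likelihood test with Benjamini-Hochberg adjustment over 11382 genes; DESeq2 1.42.0 and limma 3.58.1 were alternatives. The scripts were tested on simulated data.

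Members, lists, tests and the rule for named genes were chosen with earlier results of these data known. Named genes were all members, PPARG and the genes nearest to 3 members. Up to 4 genes of each list, those with the largest fold in any comparison, were also named. The pseudogenes, PKP1, CTNNA2, CTNNA3, CDH2 and the ZEB, TWIST and marker genes at single levels were named after their values were seen. Gene lengths were not at hand, so levels were not compared between genes per length. The lists of mesenchymal, immune and endothelial markers served as a check of the label: the summed level of 6 immune markers was 8.86 to 25.3 CPM and that of 3 endothelial markers 0.0568 to 3.09 CPM. In Eso26 nearly all of the immune sum was LYZ, at 24.7 CPM in the library labelled siPPARG and 24.6 CPM in the control. In OE33 most of it was CD14 and CD79A. PTPRC, CD3E and CD68 had at most 1 count in any library.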

Additional observations from a re-analysis of the deposited data

Results flagged for a closer look

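For 3 of the 8 members kept in both lines, the counting intervals of siPPARG over control lay on opposite sides of 1 in the 2 lines. CDH1 stood at 1.13 in OE33 and 0.896 in Eso26. CLDN12 stood at 1.10 in OE33 and 0.898 in Eso26, and OCLN at 1.10 in OE33 and 0.904 in Eso26. Scaled by the library total alone, OCLN in Eso26 stood at 0.933 with an interval that includes 1. The difference between the lines was not tested, since each line has 1 library per condition. Over the 9589 genes kept in both lines, 14.2% had intervals on opposite sides of 1. Counting intervals narrow as counts rise, and this share was not matched to the levels of the members. PPARG was not detectably lower in Eso26, so the Eso26 ratios refer to the library labelled siPPARG.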

How the results depend on the processing

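The labels give no replicate numbers by which libraries could be paired; the model of line and treatment sets siPPARG against control within each line. The count of genes past 2-fold with siPPARG in OE33 was 157, and it was 297 at a filter of 1 CPM, 1137 without a filter (556 higher, 581 lower) and 600 at 1.5-fold. In Eso26 it was 21 (6 higher, 15 lower), and it was 100 at 1 CPM (64 higher, 36 lower), 9 at 10 CPM (1 higher, 8 lower), 1047 without a filter (713 higher, 334 lower) and 249 at 1.5-fold (130 higher, 119 lower). Scaled by the library total alone, 8 were higher and 10 lower. Between the controls it was 4233, and it was 7421 without a filter and 6653 at 1.5-fold. The members past the threshold went to 1 with siPPARG in OE33 without a filter (CLDN2, at 0 and 3 counts) and to 1 in Eso26 at 1.5-fold (CLDN2). The 6 members past 2-fold between the controls stayed 6 under every scaling, filter and prior count tried. For the treatment term, DESeq2 called 13 genes and edgeR without a filter 64, with 0 members in either.

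With line alone as the term and 1 library left out in turn (an alternative added after seeing the data), 6981 to 7973 genes and 7 to 9 members were called, the line with 1 library being assumed to vary like the other. Those no longer called were CLDN7 without the OE33 control (adjusted p 0.116), without the Eso26 library labelled siPPARG (0.0778) and without the Eso26 control (0.0711), CDH3 without OE33 siPPARG (0.0638), without the Eso26 library labelled siPPARG (0.0533) and without the Eso26 control (0.0846), and CDH1 without the Eso26 library labelled siPPARG (0.0588). The cause was not tested. Scaling by the library total alone shifted the median gene by -0.10 on the log2 scale between the siPPARG libraries. Depth limits CLDN2 in OE33 siPPARG and CLDN18 in both Eso26 libraries to upper bounds, and CLDN2 in the OE33 control rests on 3 counts.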
